A study of Mus musculus with 120 samples.

Results

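Kruppel-like factor genes (Klf2, Klf3, Klf4, Klf6, Klf10 and Klf13) and 4 genes tied to restraint of growth (Foxo1, Ypel3, Btg1 and Btg2) were followed through the activation of single mouse group 2 innate lymphoid cells (ILC2s). These 10 genes, of 46078 gene IDs in the count files, were taken from a list written with results of the same cells in view: it names them for being lost as unstimulated cells become activated and for their level in silent cells, using gene-read-scaled counts (CPM, reads per 1000000 gene reads) of summed reads and detection per cell in all 12 groups. Levels and detection in those groups are therefore given as descriptions, and no difference between groups was tested. All 10 genes had reads in at least 1 cell, and 5 of them (Klf6, Klf13, Ypel3, Btg1 and Btg2) averaged 50 CPM or more across the groups.

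Kruppel-like factors are zinc-finger transcription factors that bind GC-rich and CACCC-type DNA. Klf2 and Foxo1 maintain resting T cells and their homing receptors, and Foxo1, a forkhead factor, is pushed out of the nucleus when growth factor signalling through Akt is on. Btg1 and Btg2 are small antiproliferative proteins that bind the CCR4-NOT deadenylase, the complex that shortens poly(A) tails, and in T cells they hold mRNA levels low during quiescence. Ypel3 is a small zinc-binding protein that slows growth when it is overexpressed. ILC2s make the type 2 cytokines IL-5 and IL-13 in response to the alarmin IL-33.

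On GRCm38 the annotation placed these protein-coding genes on 9 chromosomes, with only Klf13 and Ypel3 on the same one. The Kruppel-like genes are Klf2 (ENSMUSG00000055148) at chr8:72319033-72321656, Klf3 (ENSMUSG00000029178) at chr5:64803388-64832901, Klf4 (ENSMUSG00000003032) at chr4:55527143-55532466, Klf6 (ENSMUSG00000000078) at chr13:5861482-5870394, Klf10 (ENSMUSG00000037465) at chr15:38291463-38300706 and Klf13 (ENSMUSG00000052040) at chr7:63886351-63938915. The others are Foxo1 (ENSMUSG00000044167) at chr3:52268336-52353221, Ypel3 (ENSMUSG00000042675) at chr7:126776955-126780514, Btg1 (ENSMUSG00000036478) at chr10:96617006-96622809 and Btg2 (ENSMUSG00000020423) at chr1:134075170-134079120. Reads were counted over whole genes, so no exon or isoform is told apart.

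Promoter windows of 4 of the genes are shown because these genes carry the most reads of the 10. Of the 10 genes 9 matched a RefSeq promoter on GRCm38.p6, all but Klf10, and each window runs from 250 to 51 bases before the annotated start. The windows lie at chr10:96616751-96616950 (plus strand), chr1:134079206-134079405 (minus strand), chr7:126776713-126776912 (plus strand) and chr13:5861239-5861438 (plus strand), and each is written 5' to 3' on the strand of its gene. Capitals mark exact matches on either strand to the core of the cAMP response element (TGACG), to the full element (TGACGTCA), which contains that core, and to a forkhead motif (TGTTTAC).
Btg1: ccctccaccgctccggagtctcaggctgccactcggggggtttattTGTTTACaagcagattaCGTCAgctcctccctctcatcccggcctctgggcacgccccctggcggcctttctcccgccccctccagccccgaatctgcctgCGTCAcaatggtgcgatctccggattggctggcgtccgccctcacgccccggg
Btg2: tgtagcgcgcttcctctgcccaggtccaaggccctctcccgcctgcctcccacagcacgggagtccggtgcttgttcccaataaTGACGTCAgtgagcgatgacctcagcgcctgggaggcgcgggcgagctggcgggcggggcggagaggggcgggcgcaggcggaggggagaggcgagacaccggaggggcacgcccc
Ypel3: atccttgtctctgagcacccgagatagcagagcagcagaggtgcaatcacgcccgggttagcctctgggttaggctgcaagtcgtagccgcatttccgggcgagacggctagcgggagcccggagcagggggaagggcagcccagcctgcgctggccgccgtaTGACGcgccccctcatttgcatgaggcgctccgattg
Klf6: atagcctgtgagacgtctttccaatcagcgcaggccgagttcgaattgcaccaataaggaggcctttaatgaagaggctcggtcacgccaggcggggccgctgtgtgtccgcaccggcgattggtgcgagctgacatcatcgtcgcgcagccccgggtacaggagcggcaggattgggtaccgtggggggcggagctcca
The Btg2 window held the full cAMP response element, which 0.828% of 32851 RefSeq promoter windows of the same length held, and Btg1 held the forkhead motif (2.58% of windows). The 5-base core stood in the windows of Btg1, Btg2, Ypel3, Klf2, Klf4 and Klf13 and in 12.7% of all windows. No letters are in capitals for Klf6, whose window held 4 CCAAT boxes (CCAAT, 28.4% of all windows held at least 1) and 1 GC box (GGGCGG, 24.6%). The CACCC box (CACCC, 44.4% of all windows) was found in the windows of Klf3 and Ypel3. These matches describe letters in a window, and no binding was measured.

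The cells came from the pooled mesentery (fat tissue) of 20 wildtype C57BL/6 mice, sorted as lineage-negative c-Kit+Sca-1+ ILC2s and cultured for several months in medium with IL-2 before stimulation with IL-2 and IL-33, so that all groups share 1 pooled isolation and a long culture. Secretion of IL-13 or of IL-5, called the index, was imaged live, and cells were picked before stimulation (pre-stimulation), 30, 60 or 90 min after the onset of secretion, or at a fixed later time as secreting (activated) or not secreting (silent). Each index had 5 pre-stimulation cells and 11 cells in each of the other 5 states, which makes 120 cells in 12 groups. Because neither an animal nor a culture is labelled for any cell, each group stands as 1 sample without replication, and the 95% intervals below cover counting error of reads or cells only. By the study's methods such cells usually come from female mice past breeding age (retired breeders). No age was given in the sources used here.

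Cells held 65 to 785198 gene reads (median 254001), and 6 cells held fewer than 84667, which is the median divided by 3. They stayed in the sums and were left out of the ranges over cells given below. In the sums they can weigh on single genes: at 90 min IL13 replicate 4 held 29.2% of that group's Klf6 reads. The titles carry 2 dates per index: each stimulated state has 5 cells from the earlier (first) and 6 from the later (second), whereas no pre-stimulation cell is from the later one, so state and date cannot be told apart for those comparisons beyond the first date. The 2 indexes share no date, so index and date cannot be told apart either. Joining the pre-stimulation cells of both indexes, as done below, also joins cells of different dates. Of 14 ILC2 markers 11, among them Gata3, Rora, Il1rl1, Ly6a and Kit, had reads in all 12 groups (summed 6276 to 14128 CPM), and Ptgdr2 had none. Of 8 T cell markers Cd4 and Cd8a were at 0 in every cell, while Cd3g was at 1128 and 1195 CPM in IL13 and IL5 pre-stimulation cells and at 0 CPM in activated cells of both indexes. Silent cells held 505 CPM (IL13) and 28.4 CPM (IL5) of Cd3g. The summed T cell markers ranged from 327 to 1884 CPM over the groups, with Trbc2 read in 98 of 120 cells, and their part in the results was not tested. Natural killer markers (3 of 3), all B cell markers but Ighm, all myeloid markers but Adgre1 in 1 cell, and the stromal markers Adipoq, Col1a1 and Pdgfra were at 0 in every cell. Pecam1 reached 175 CPM, and of the mast cell or basophil markers Mcpt4 and Mcpt8 were at 0 while Fcer1a reached 326 CPM. Ighm stood at 276 and 235 CPM in IL13 and IL5 pre-stimulation cells, 9.08 and 21.4 CPM in activated and 0 and 51.5 CPM in silent cells. Fcer1a stood at 301 and 37.1 CPM before stimulation, 48.5 and 233 CPM in activated and 0 CPM in silent cells of both indexes. Their part in the results was not tested either.

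The name quiescence genes was only partly borne out by the values before stimulation. Klf2 and Foxo1 had no read in any of the 10 pre-stimulation cells, and neither did S1pr1 and Pik3ip1, which Klf2 or Foxo1 drive in resting lymphocytes. Other genes of the same background were read in pre-stimulation cells of the IL13 and IL5 index, among them Itgb7 (545 and 385 CPM), Txnip (157 and 253 CPM) and Slfn2 (296 and 1050.2 CPM). Proliferation genes (15 in the list) were read in all 10 pre-stimulation cells. They stood at a median of 455 CPM over the IL13 cells, where 1 cell held 24755 CPM and the other 4 held 50.9 to 687 CPM, and of 761 CPM over the IL5 cells, where 1 cell held 2772 CPM. Medians over the stimulated groups were 354 to 974 CPM. The genes are therefore called by their own names here, and pre-stimulation is not read as quiescent.

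**Figure D1:**
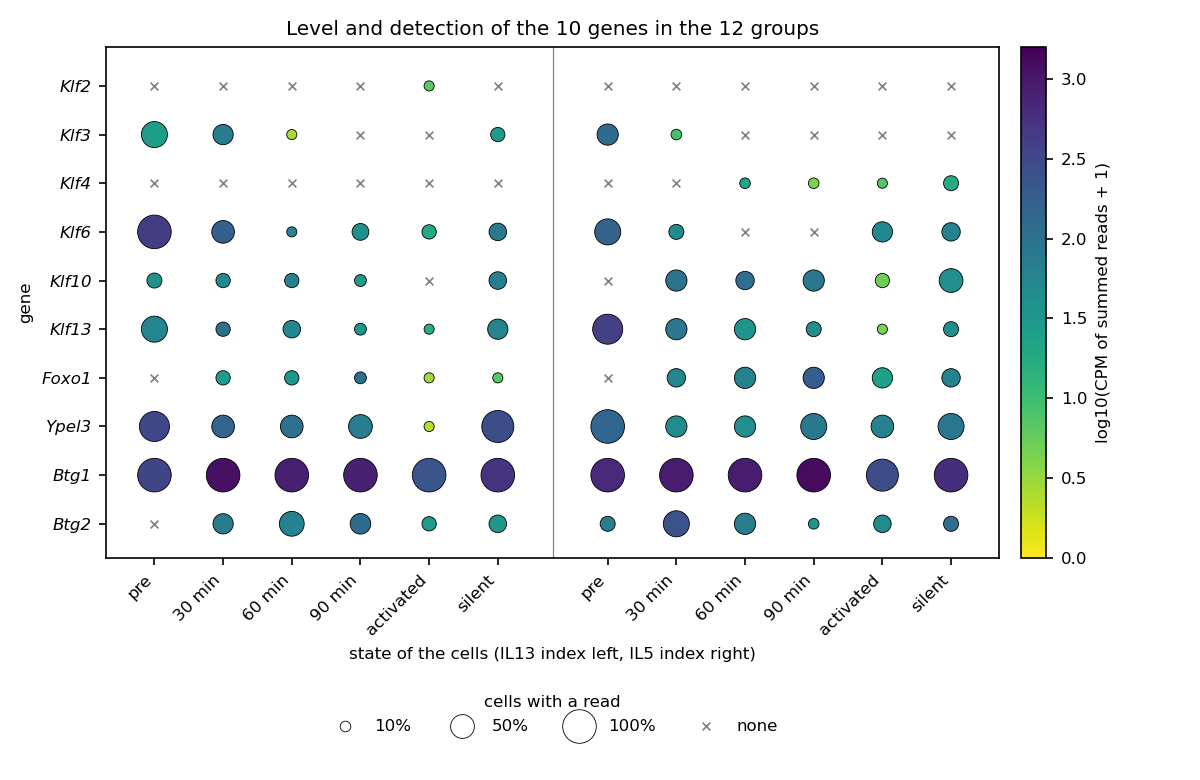
Level and detection of the 10 genes (rows) in the 6 states of the IL13 index (left) and the IL5 index (right). Colour is log10 of the CPM of summed reads plus 1, the area of a circle is the share of cells with a read after thinning to 100000 reads a cell, and a cross marks a group with no such cell: Btg1 fills nearly every cell, Klf2 and Klf4 are almost empty, and Klf6 has its widest circles in pre-stimulation cells of both indexes.

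Between states the 10 genes did not move as a block. A gene was called lower or higher when its CPM of summed reads differed at least 2-fold between groups (groups with fewer than 3 reads were given 3, and a ratio to a group with no read is a bound), and no ratio was formed where both values lay at or under that floor. At this threshold many genes differ between groups of 5 and 11 cells, so each count stands beside the share of all genes that averaged 50 CPM or more in the groups compared. Because the genes were chosen on these values, nothing is read from the comparison of those shares.

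At 30 min after IL-13 onset, against pre-stimulation cells, Klf6 and Ypel3 were lower and Klf3, Foxo1, Btg1 and Btg2 higher (2 and 4 of 8 genes with a ratio). Over all 2654 genes 30.7% were lower and 25.7% higher (27.6% and 28.9% with TMM factors). At 30 min after IL-5 onset Klf3, Klf6, Klf13 and Ypel3 were lower and Klf10, Foxo1 and Btg2 higher (4 and 3 of 8), with 30.2% of 2837 genes lower and 26.3% higher. TMM factors turned that split to 24.3% and 31.7%. In activated against pre-stimulation cells of the IL13 index 5 genes (Klf3, Klf6, Klf10, Klf13 and Ypel3) were lower and 1 (Btg2) higher, beside 33.6% and 26.9% of 2641 genes (29.3% and 31.4% with TMM factors). The IL5 index had 5 lower (Klf3, Klf6, Klf13, Ypel3 and Btg1) and 2 higher (Klf4 and Foxo1), beside 35.7% and 25.6% of 2762 genes (28.4% and 32.3% with TMM factors, under which Ypel3 and Btg1 went below 2-fold). Klf3, Klf6, Klf13 and Ypel3 were on both lists, but Klf6 and Ypel3 of the IL5 index and Klf13 of the IL13 index each lost the call without 1 pre-stimulation cell, named with their values below. Klf4 of the IL5 index, whose 23 activated reads were all in replicate 11, lost it without any 1 of 3 pre-stimulation cells. With the pre-stimulation cells of both indexes joined, both genes lower at 30 min in the IL13 index lost the call (Klf6 at -0.71 and Ypel3 at -0.62) while Klf13 there went from 0.91 to -1.18, Btg1 lost it in IL5 activated cells (-0.86), and Btg2 changed direction in IL13 activated (-0.43) and silent (-0.23) cells.

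In silent against pre-stimulation cells 1 gene was lower (Klf6) and 2 were higher (Klf10 and Btg2) in the IL13 index, beside 25.3% and 28.8% of 2873 genes. The IL5 index had 3 lower (Klf3, Klf6 and Klf13) and 3 higher (Klf4, Klf10 and Foxo1), beside 31.6% and 24.8% of 2825 genes (25.2% and 30.9% with TMM factors). Activated and silent cells were picked at the same time, and 7 genes were lower in activated cells of the IL13 index (Klf3, Klf6, Klf10, Klf13, Foxo1, Ypel3 and Btg1) and 1 higher (Klf2), beside 27.4% and 17.5% of 2796 genes. In the IL5 index 6 were lower (Klf4, Klf10, Klf13, Foxo1, Btg1 and Btg2) and 0 higher, beside 17.5% and 13% of 2563 genes. Klf10, Klf13, Foxo1 and Btg1 were on both lists. Of these Btg1 went under 2-fold in both indexes with TMM factors, Foxo1 lost the call in both without 1 silent cell and changed direction on 1 date in each, and Klf13 of the IL5 index changed direction on the second date. Comparisons with pre-stimulation cells of an index share those 5 cells. The shares cover a set other than the counts, since the counts include genes under 50 CPM. With all genes of at least 10 CPM, the shares lower were 32.9% (30 min), 34.1% (activated), 26.8% (silent) and 36.5% (activated against silent) in the IL13 index and 31.7%, 36.0%, 31.6% and 28.4% in the IL5 index. The shares higher at that minimum were 36.9%, 36.8%, 42.2% and 24.5% in the IL13 index and 37.8%, 36.3%, 38.0% and 21.1% in the IL5 index. The counts of the 10 genes lower at that minimum were 2, 5, 1 and 6 (IL13) and 4, 5, 3 and 6 (IL5), and those higher were 4, 1, 2 and 0 (IL13) and 3, 1, 2 and 0 (IL5). Genes can pass that minimum too through 1 group alone, as Klf3, Klf10 and Btg2 did in activated against pre-stimulation IL13 cells. Their calls were then fixed, so nothing is read from these counts. Of the 10 genes 2 to 6 per comparison averaged 50 CPM or more in the groups compared, and a gene that does so through 1 group alone had to differ, so no count is given over them. Over all of the 10 genes with a ratio (8, 8, 8 and 9) the median log2 ratios were 1.23 (30 min), -3.26 (activated), 0.32 (silent) and -1.95 (activated against silent) in the IL13 index, where all genes of at least 10 CPM gave 0.00048, 0.054, 0.44 and -0.30. In the IL5 index the medians were -0.66, -1.23, -0.22 and -1.32 over 8, 9, 9 and 8 genes, where all genes gave 0.063, -0.11, 0.11 and -0.13.

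**Figure D2:**
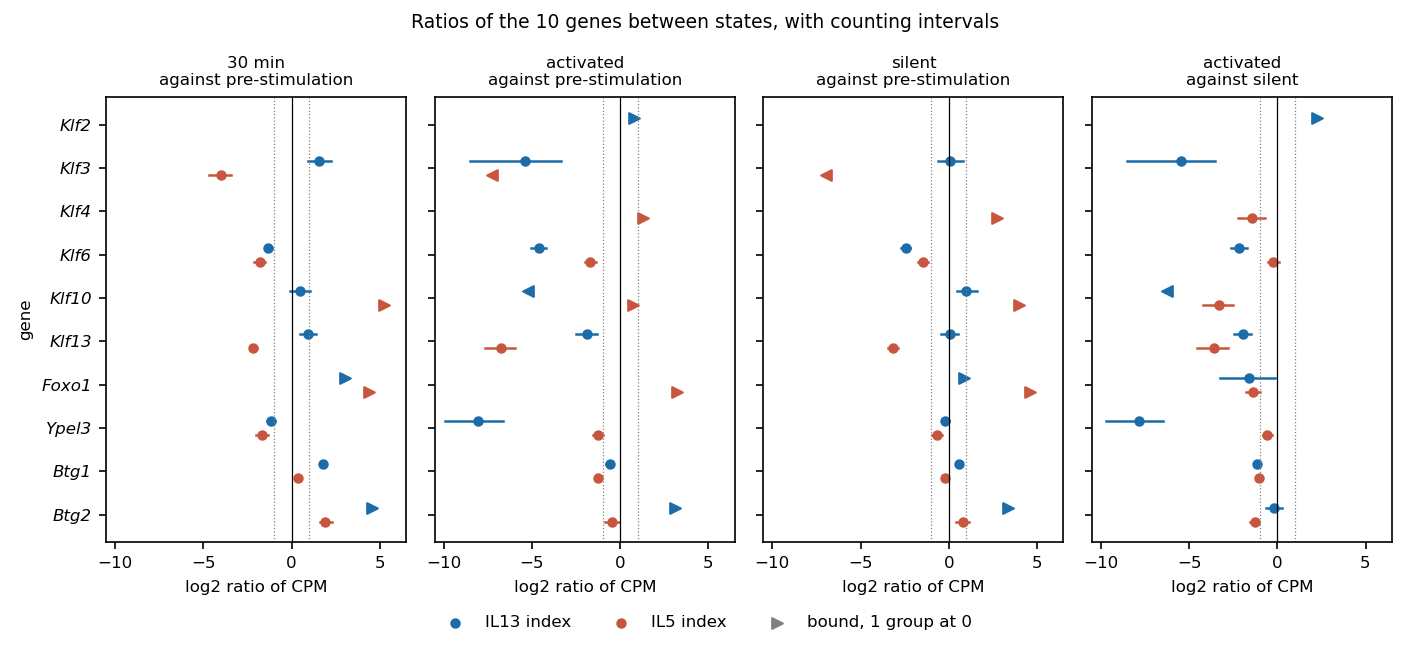
Log2 ratios of CPM for the 10 genes (rows) in 4 comparisons (panels), IL13 index in blue and IL5 index in red. Points carry the 95% counting interval, triangles are bounds where 1 group had no read, dotted lines mark 2-fold, and missing points had no ratio: the lowest point of the plot is Ypel3 in IL13 activated cells, at -8.04 against pre-stimulation cells.

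Klf6, an immediate early zinc-finger factor, was the Kruppel-like gene most widely read before stimulation. The 5 IL13 pre-stimulation cells held 386, 847, 389, 444 and 176 CPM, so that all 5 had it. Of the 5 IL5 pre-stimulation cells 2 held 307 and 700 CPM, 1 held 17.1 CPM and 2 held none. Summed over cells, the IL13 index gave 430.3 CPM before stimulation (95% interval 390 to 474), 171 at 30 min, 59.1 at 60 min, 39.0 at 90 min, 17.5 in activated and 79.0 in silent cells, with no neighbours in that order of levels overlapping. Cells at 30 min ranged from 0 to 822 CPM (median 4.25), so the groups overlapped, and 6 of 11 cells had a read. The log2 ratio at 30 min was -1.33 (-1.53 to -1.14) and -0.9987 without pre-stimulation replicate 2. On the first date, the only one with pre-stimulation cells, it was -0.36, and against the pre-stimulation cells of both indexes joined it was -0.71. In the IL5 index Klf6 was at 162 CPM before stimulation, 46.2 at 30 min, 0 at 60 min, 0.547 at 90 min (1 read), 50.1 in activated and 58.4 in silent cells.

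The log2 ratio of Klf6 in activated against pre-stimulation cells was -4.62 (interval -5.05 to -4.21) in the IL13 index and stayed between -6.49 and -4.29 when any 1 cell was left out, with -4.00 against the joined pre-stimulation cells. In the IL5 index it was -1.69 (-1.99 to -1.39), but without replicate 5 of the pre-stimulation cells, which held 76.5% of that group's Klf6 reads, it was 0.12, on the first date it was -0.50, and against the joined pre-stimulation cells it was -2.49. The same cell decided the IL5 ratios at 30 min (-1.81, and 0.0026 without it) and in silent cells (-1.47, and 0.34 without it). Silent IL13 cells also held less than pre-stimulation cells, at -2.45 (-2.69 to -2.20), or -1.83 against the joined pre-stimulation cells, in 3 of 11 cells. Between activated and silent IL13 cells the ratio of -2.17 turned with the date, at 3.76 for first-date and -6.28 for second-date cells. It was -0.58 without silent replicate 10.

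Klf13, a repressor and activator of lymphocyte genes such as Ccl5, was highest in IL5 pre-stimulation cells. Those 5 cells held 172, 444, 0, 358 and 896 CPM, whereas the 5 IL13 pre-stimulation cells held 16.3, 0, 291, 5.93 and 0 CPM. The 2 groups overlap, and 90.6% of the IL13 reads came from replicate 3. Summed levels in the IL5 index went from 376 CPM (342 to 412) before stimulation to 83.6 at 30 min, 34.5 at 60 min, 39.9 at 90 min, 3.48 in activated and 42.7 in silent cells, with overlapping intervals at 60 min, at 90 min and in silent cells. In the IL13 index they were 55.0, 103, 53.6, 31.8, 14.7 and 56.7 CPM in the same order of states.

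Activated cells were the lowest of the 6 states for Klf13 in both indexes, with reads in 1 of 11 cells each. Against pre-stimulation cells the log2 ratio was -6.75 (-7.68 to -5.97) in the IL5 index, between -8.75 and -6.25 with any 1 cell left out and -6.07 against the pre-stimulation cells of both indexes joined. In the IL13 index it was -1.90 (-2.50 to -1.31) and became 1.24 without pre-stimulation replicate 3, -0.56 on the first date and -3.99 against the joined cells. At 30 min in the IL13 index joining them turned the ratio from 0.91 to -1.18. Against silent cells the ratio of activated cells was -3.62 (-4.56 to -2.79) in the IL5 index, with -5.42 on the first date and 1.55 on the second. Without silent replicate 5, which held 84.0% of the silent reads, it was -1.16. The IL13 index gave -1.95 (-2.45 to -1.46), with -1.28 and -4.64 on the 2 dates.

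Klf3, a repressor that recruits the CtBP corepressor, was read in some cells before stimulation in both indexes and in no later IL5 cell beyond 30 min. In IL5 pre-stimulation cells 3 of 5 had it, at 204, 321 and 4.67 CPM, and in the IL13 index 3 of 5 had it, at 12.2, 18.2 and 88.0 CPM. No IL5 cell at 60 or 90 min, activated or silent had a read, and activated cells were at least 153-fold lower than pre-stimulation cells, silent cells at least 126-fold. These bounds, -7.26 and -6.97 in log2, were -6.22 and -5.93 without pre-stimulation replicate 4 and -6.64 and -6.35 against the pre-stimulation cells of both indexes joined. IL13 cells differed: 5 of 11 cells at 30 min had reads, with a summed level of 75.8 CPM (65.8 to 87.0) against 25.9 CPM before stimulation. In IL13 activated cells 2 reads in 1 cell remained (log2 ratio against pre-stimulation from the 2 reads, without the floor, -5.37, interval -8.49 to -3.37), while 2 of 11 silent cells gave 27.6 CPM (log2 ratio against pre-stimulation 0.09, from -0.97 to 1.78 with any 1 cell left out). The gain at 30 min, 1.55 (0.95 to 2.21), was 1.00, just under 2-fold, without 30 min replicate 5, and -0.076 against the pre-stimulation cells of both indexes joined.

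**Figure D3:**
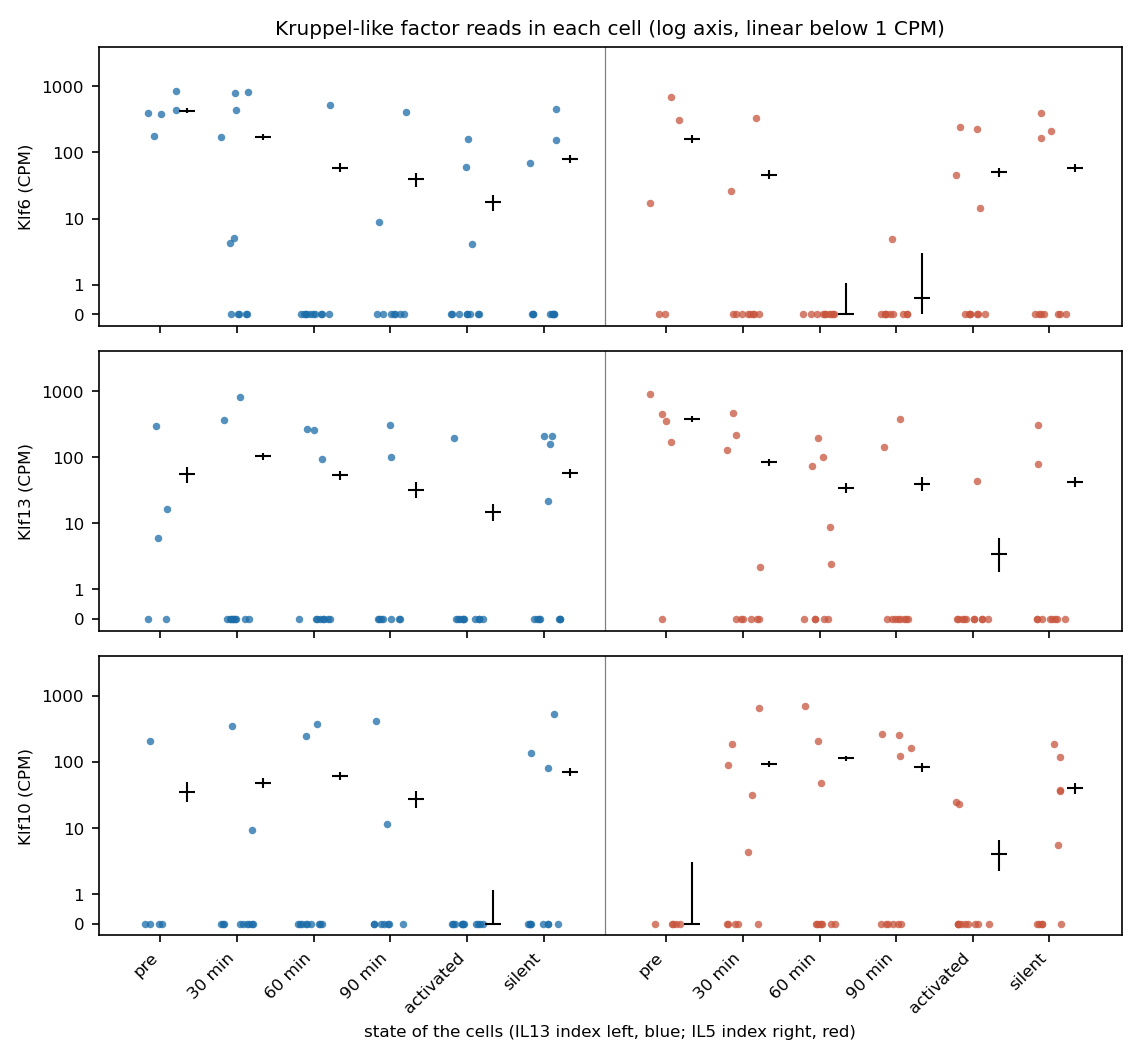
CPM of Klf6, Klf13 and Klf10 in each cell (points) by state, IL13 index in blue and IL5 index in red, on a log axis that is linear below 1 CPM. Black marks give the CPM of summed reads with its 95% counting interval, and the 6 shallow cells are left out of the points: all 5 IL13 pre-stimulation cells lie above 100 CPM of Klf6, and Klf13 is at 0 in 10 of 11 activated cells of each index.

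Klf10, a TGF-beta-inducible early gene, was low before stimulation. It was read in 1 of 5 IL13 pre-stimulation cells, at 206 CPM, and in none of the 5 IL5 cells. The IL5 index then held 93.5 CPM (83.7 to 104) at 30 min, 113 at 60 min, 82.6 at 90 min, 4.02 in activated and 39.8 in silent cells, with reads in 5, 3, 5, 2 and 5 of 11 cells. At 30 min it was at least 37.8-fold higher than in IL5 pre-stimulation cells, a log2 bound of 5.24 that was 3.99 without 30 min replicate 3. Against the pre-stimulation cells of both indexes joined, which include the IL13 cell with reads, the log2 ratio was 2.58 at 30 min and 1.35 in silent IL5 cells, where the bound against IL5 cells alone was 4.01. The IL13 index held 35.3, 48.2, 61.7 and 27.6 CPM up to 90 min, 0 in activated and 70.7 in silent cells, the 5 groups with reads overlapping in their intervals from neighbour to neighbour.

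Activated cells thus had the least Klf10 of the stimulated states. They were at least 75.2-fold lower than silent cells in the IL13 index (0 reads against 187, of which 74.3% came from silent replicate 11), and the log2 ratio in the IL5 index was -3.31 (-4.19 to -2.53), between -4.28 and -2.59 with any 1 cell left out. The IL13 bound, -6.23 in log2, was -4.42 without silent replicate 11. Both dates gave the same direction in both indexes, with -4.46 and -5.69 for IL13 and -2.67 and -3.89 for IL5. The 2.00-fold difference between silent and pre-stimulation IL13 cells went under 2-fold when any 1 of 7 cells was left out, and was -0.81 in log2 without silent replicate 11, 0.58 on the first date and 2.18 against the joined pre-stimulation cells.

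Klf2 and Klf4 were close to unread. Klf2 had 17 reads, all in 1 IL13 activated cell, so that 119 of 120 cells had none, and the floor of 3 reads over a group corresponds to 0.804 to 3.11 CPM. Klf4, known from pluripotency and from growth arrest, had no read in the 60 IL13 index cells and 154 reads in 7 of 60 IL5 index cells, at 1.13 to 20.5 CPM in the 5 stimulated states. All 23 reads of IL5 activated cells were in replicate 11, and the log2 bound of 1.32 against pre-stimulation cells went under 2-fold without pre-stimulation replicate 2 (0.90), 3 (0.96) or 4 (0.92). At this depth the absence of Klf2 is a statement about reads and does not exclude low expression.

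Foxo1 was not read before stimulation and was read after it. None of the 10 pre-stimulation cells had a read. The counting interval of the summed reads then reaches up to 3.83 CPM in the IL13 and 3.04 CPM in the IL5 group. The floor of 3 reads used for ratios stands at 3.11 and 2.47 CPM. With 0 of 5 cells read in each group, the interval for the share of cells with a read reaches 52.2%. A level carried by few cells is therefore not excluded before stimulation. After stimulation the IL5 index held 52.7 CPM (45.4 to 60.8) at 30 min, 59.4 at 60 min and 185 at 90 min. Activated cells held 23.0 and silent cells 59.7 CPM, the silent, 60 min and 30 min levels overlapping. Reads were found in 3, 4, 5, 4 and 3 of 11 cells. Shallow cells left out, the highest cell held 641 CPM at 90 min and 684 CPM among silent cells. The shallow 90 min replicate 11 held 976 CPM. The median cell was at 0 in every group.

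In the IL13 index Foxo1 was sparser, at 25.4, 32.0 and 105 CPM at 30, 60 and 90 min, 1.88 in activated and 5.67 in silent cells. All 175 reads at 90 min came from 1 cell, replicate 9. At 30 min Foxo1 was at least 8.17-fold (IL13) and at least 21.3-fold (IL5) higher than before stimulation. In log2 these bounds were 3.03 and 4.41, and they were 1.52 without IL13 30 min replicate 4 and 3.32 without IL5 30 min replicate 5. Activated cells were lower than silent cells by -1.59 (-3.25 to -0.15) and -1.37 (-1.76 to -0.996) in log2. Neither difference held without 1 silent cell, at 0.60 without IL13 silent replicate 4 and 0.08 without IL5 silent replicate 6. The IL5 ratio was 0.16 on the first date and -3.39 on the second, and the IL13 ratio -2.79 and 0.84.

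Ypel3 separated activated from silent cells in the IL13 index. All 11 silent cells had a read, from 3.42 to 689 CPM with a median of 331, and 1 of 11 activated cells had one, at 19.3 CPM. The per-cell ranges overlap only through that cell, which lay above 3 of the 11 silent cells. Summed levels were 329.7 CPM (295 to 368) before stimulation, 146 at 30 min, 104 at 60 min, 70.2 at 90 min, 1.25 in activated and 287 in silent cells, the pre-stimulation and silent intervals overlapping. The log2 ratio of activated to silent cells was -7.84 (-9.72 to -6.48, 4 reads against 759), with -7.00 and -7.07 on the 2 dates. Against pre-stimulation cells it was -8.04 (-9.92 to -6.67), between -8.46 and -7.28 with any 1 cell left out.

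The 5 IL13 pre-stimulation cells held 4.06, 871, 983, 0 and 37.0 CPM of Ypel3, so that 2 cells carried nearly all of it. Without replicate 3 of them the ratio at 30 min went from -1.17 to -0.41, against the pre-stimulation cells of both indexes joined it was -0.62, and it was also under 2-fold without pre-stimulation replicate 2 (-0.55) or 30 min replicate 9 (-0.96). The 5 IL5 pre-stimulation cells all had a read, at 509.8, 114, 83.1, 3.41 and 210 CPM. Summed levels in the IL5 index were 141, 43.9, 40.1, 83.1, 59.2 and 87.4 CPM in the order pre-stimulation, 30, 60 and 90 min, activated and silent, and 5 of 11 activated cells had reads. Activated IL5 cells lay at -1.25 (-1.55 to -0.96) against pre-stimulation cells, and at -0.69 without pre-stimulation replicate 1, or -1.92 against the joined pre-stimulation cells. The ratio of activated to silent IL5 cells was -0.56 (-0.83 to -0.30), under 2-fold, with 4.92 on the first date and -1.58 on the second. The activated cells of the 2 indexes thus stood at 1 and 5 of 11 cells with Ypel3, and that difference was not tested.

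Btg1 was the gene most widely read. It was found in 117 of 120 cells, and the 3 cells without it were shallow cells of the IL5 index. The IL13 pre-stimulation cells held 158, 207, 1275, 178 and 88.0 CPM, and the IL5 pre-stimulation cells 929.7, 1083, 879.9, 188 and 476 CPM. At 30 min cells ranged from 469.8 to 2251 CPM (median 999.7) in the IL13 index and from 232 to 1508 CPM (median 890.2) in the IL5 index. Of the 5 IL13 pre-stimulation cells 4 lay below all 11 cells at 30 min, while the IL5 groups overlapped.

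**Figure D4:**
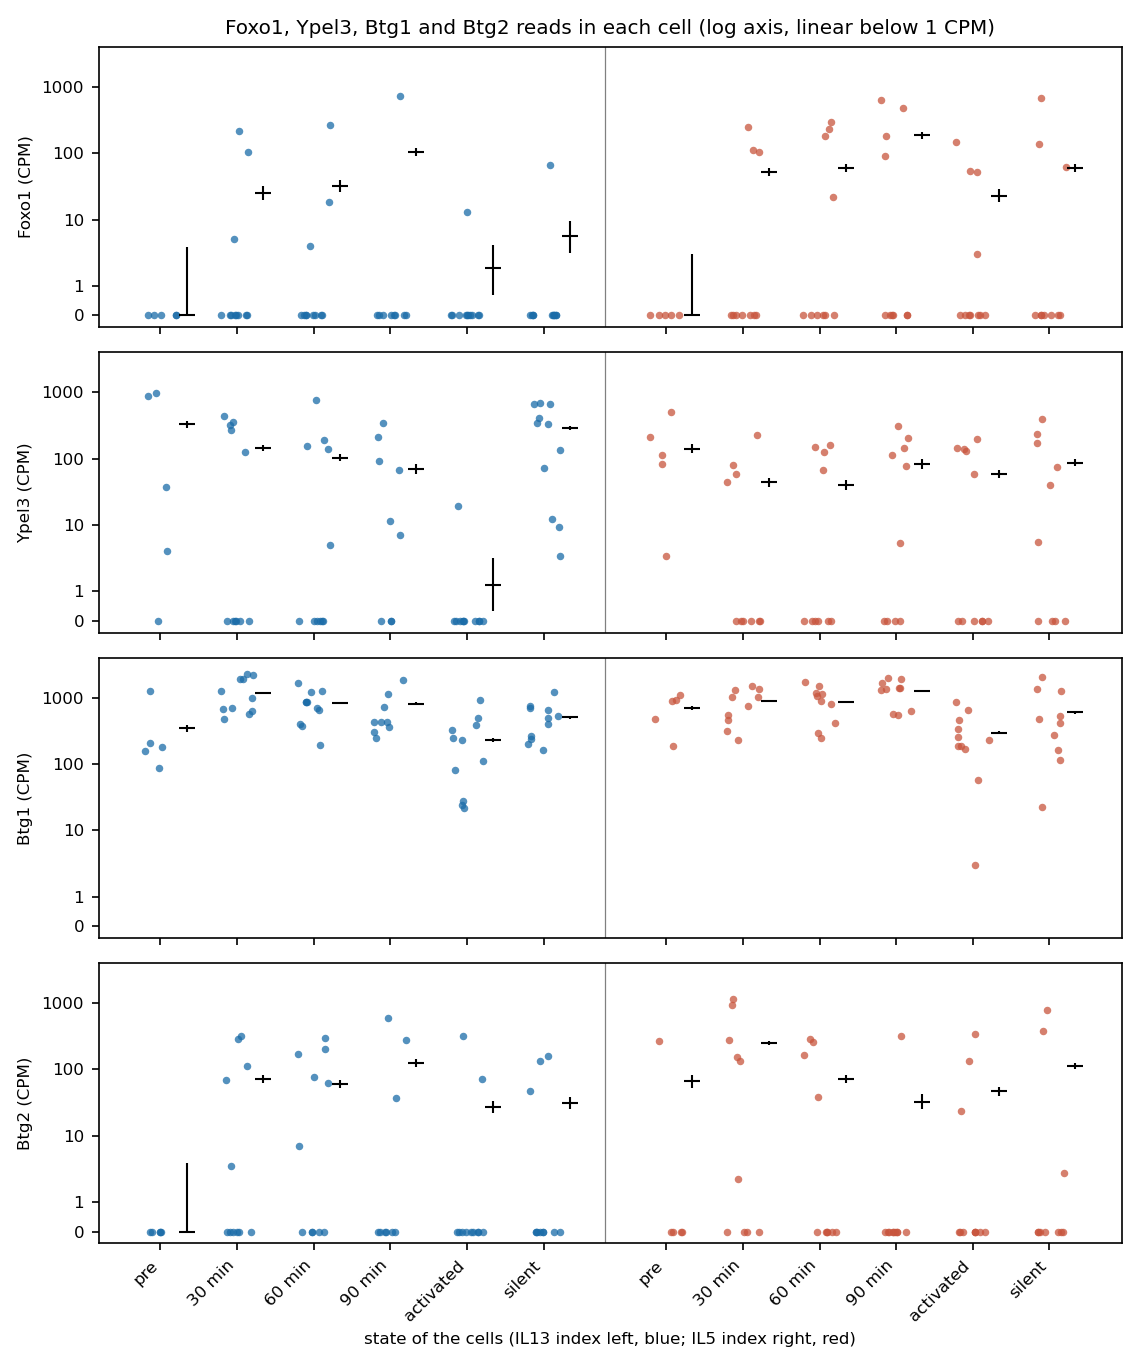
CPM of Foxo1, Ypel3, Btg1 and Btg2 in each cell (points) by state, IL13 index in blue and IL5 index in red, on a log axis that is linear below 1 CPM. Black marks give the CPM of summed reads with its 95% counting interval, and the 6 shallow cells are left out of the points: Ypel3 is at 0 in 10 of 11 IL13 activated cells and above 0 in all 11 silent cells, and Btg1 is above 0 in every cell shown.

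Summed Btg1 in the IL13 index was 345 CPM (309 to 384) before stimulation, 1168 (1127 to 1209) at 30 min, 839 at 60 min, 814 at 90 min, 228 in activated and 509 in silent cells, and only the 60 and 90 min intervals overlapped. The IL5 index held 698 CPM before stimulation, 899 at 30 min, 865 at 60 min, 1272 at 90 min, 297 in activated and 600.2 in silent cells, with 30 and 60 min overlapping. Activated cells were the lowest of the 6 states in both indexes. In the IL13 index the log2 ratio at 30 min against pre-stimulation was 1.76 (1.59 to 1.93), between 1.48 and 2.92 with any 1 cell left out and 1.11 against the pre-stimulation cells of both indexes joined, and in the IL5 index it was 0.36 (0.26 to 0.48).

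Activated cells ranged from 21.5 to 925 CPM of Btg1 (median 233) in the IL13 index and from 3.04 to 856 CPM (median 232) in the IL5 index. Silent cells ranged from 162 to 1215 CPM (median 489) and from 22.3 to 2084 CPM (median 449), so activated and silent cells overlapped in both. The log2 ratio of activated to silent cells was -1.16 (-1.29 to -1.03) for IL13, with -0.52 and -1.63 on the 2 dates, and -1.01 (-1.12 to -0.90) for IL5, with -0.40 and -1.69. The direction was the same in each date, and both ratios went under 2-fold when certain cells were left out, to -0.92 without IL13 silent replicate 11, -0.95 without IL13 activated replicate 11 and at the least -0.62 without IL5 silent replicate 3, 1 of 10 IL5 cells whose removal did so. Against pre-stimulation cells, activated IL5 cells lay at -1.23 (-1.36 to -1.10), at -0.93 without pre-stimulation replicate 2, at -0.68 on the first date and at -0.86 against the joined pre-stimulation cells.

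Btg2, the early-response relative of Btg1 and a target of p53, was read in fewer cells. No IL13 pre-stimulation cell and 1 of 5 IL5 pre-stimulation cells (273 CPM) had it. In the IL5 index it was at 66.0 CPM before stimulation, 249 (233 to 266) at 30 min, 71.7 at 60 min, 32.8 at 90 min, 47.2 in activated and 114 in silent cells, with 6 of 11 cells read at 30 min and 1 of 11 at 90 min. In the IL13 index it was at 0, 72.5, 61.1, 124, 27.2 and 31.4 CPM in the same order of states, and 70.4% of the 90 min reads came from replicate 9, the cell that also held all Foxo1 reads of that group. At 30 min Btg2 was at least 23.3-fold higher than before stimulation in the IL13 index, and the IL5 log2 ratio was 1.92 (1.58 to 2.26). The IL13 bound, 4.54 in log2, was 3.82 without 30 min replicate 11, and against the pre-stimulation cells of both indexes joined the ratio was 0.98, under 2-fold. The IL5 ratio ran from 1.31 to 6.25 with any 1 cell left out and was 2.76 against the joined cells. In IL13 activated cells, where replicate 9 held 75.9% of the reads, Btg2 had a log2 bound of 3.13 against IL13 pre-stimulation cells, which was 1.18 without that replicate and turned to -0.43 against the joined cells. The bound of 3.33 in silent IL13 cells turned to -0.23 in the same way.

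Against silent cells, activated IL5 cells had a Btg2 log2 ratio of -1.28 (-1.55 to -1.01), which became 0.54 without silent replicate 1, the cell with 74.6% of the silent reads, and -0.97 without silent replicate 10. The IL13 ratio was -0.20 (-0.65 to 0.25), with -1.50 on the first date and 0.56 on the second.

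Counted per cell after thinning each of 113 cells to 100000 gene reads (7 shallower cells were left out), the 10 genes were detected in few cells at once. IL13 pre-stimulation cells held a median of 4 of the 10 genes (3 to 6), cells at 30, 60 and 90 min held 3, 3 and 2, activated cells 2 (1 to 3) and silent cells 3 (2 to 5). IL5 cells held 4 (3 to 6), 3.5, 3, 2.5, 3 (1 to 5) and 3 (1 to 6). Over the same thinned cells the median number of all genes detected went the other way, from 1915 before stimulation to 2909 in activated IL13 cells and from 2251 to 3004 in the IL5 index, against 2352 and 2618 in silent cells. Unthinned medians of the 10 genes were the same for 10 of the 12 groups.

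**Figure D5:**
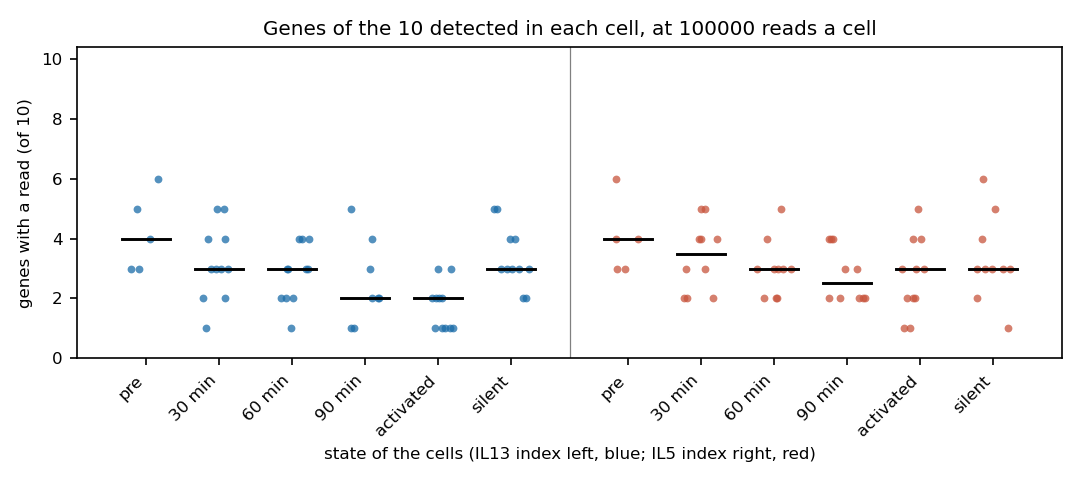
Number of the 10 genes with a read in each of 113 cells thinned to 100000 gene reads (points), with the group median (line), IL13 index in blue and IL5 index in red. Pre-stimulation cells have a median of 4 in both indexes and IL13 activated cells a median of 2, with no IL13 activated cell above 3.

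The genes around these 10 were described from lists of the pathway. Here and below, counts and medians over all listed genes with a ratio also take genes under 10 CPM. The shares of all genes beside them do not, so the 2 cover unlike sets. Of 15 other Kruppel-like and Sp factors, 6 (Klf1, Klf8, Klf12, Klf14, Klf15 and Klf17) had no read in any cell. Klf5 was at 8.30 CPM before stimulation and 112, 107 and 153 CPM at 30, 60 and 90 min after IL-13 onset, and 8.46 in activated cells, but on the first date alone its log2 ratio at 30 min was -1.46. In activated against pre-stimulation IL13 cells both factors that reached a mean of 50 CPM, Klf7 and Sp3, were lower, at log2 ratios of -3.94 and -5.27, and these were the 2 called among 5 with a ratio (median -0.14). Both reached the mean through their level before stimulation, which fixed that direction. In that comparison of the IL5 index none reached that mean. Among 11 relatives of Foxo1, Ypel3, Btg1 and Btg2 only Ypel5 reached it in the comparisons with pre-stimulation cells, at 118 CPM before stimulation and 17.5 CPM in activated IL13 cells, again through its level before stimulation, which fixed the direction. Over all 5 relatives with a ratio there, 2 were lower and 1 higher (median 0.27), beside 34.1% lower and 36.8% higher of all genes of at least 10 CPM.

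Of 14 genes known as targets of Klf2 or Foxo1 in lymphocytes, 5 reached the mean in each comparison with pre-stimulation cells, some only through the group where they are high (Cdkn1b and Txnip before stimulation in the IL5 index), so no count is given over those 5. In activated cells Itgb7, an integrin chain for gut homing, was lower in both indexes at -2.67 (-2.88 to -2.45) and -3.50 (-3.80 to -3.22). Txnip, a brake on glucose uptake, was lower in the IL5 index at -4.56 and at -0.74 in the IL13 index. Both genes were also lower in silent than in pre-stimulation cells of each index. Itgb7 stood at 85.8 and 34.0 CPM in activated and 4.16 and 141 CPM in silent cells of the IL13 and IL5 index. Txnip stood at 93.6 and 10.7 CPM in activated and 52.9 and 14.0 CPM in silent cells. Cdkn1b, which encodes the cell cycle inhibitor p27, had 137 reads in IL5 pre-stimulation cells and none in any other IL5 group. Cdkn1a, which encodes p21, was higher at 5.07 (4.40 to 5.82) at 30 min in the IL13 index, where Bcl2l11, which encodes the pro-apoptotic Bim, was also higher at 1.94. Over all targets with a ratio in activated cells 5 were lower and 1 higher of 8 (median -3.97) in the IL13 index, beside 34.1% lower and 36.8% higher of all genes of at least 10 CPM. In the IL5 index 4 were lower and 1 higher of 8 (median -1.50), beside 36.0% and 36.3%.

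Among 14 other genes tied to quiescence, 7 were lower and 3 higher of 12 with a ratio in activated IL13 cells (median -1.26), and 8 lower and 4 higher of 13 in activated IL5 cells (median -1.54). Silent cells had 5 lower and 3 higher of 11 (median -0.19) and 8 lower and 3 higher of 13 (median -2.41). All genes of at least 10 CPM had 34.1% lower and 36.8% higher (IL13) and 36.0% and 36.3% (IL5) in activated cells, and in silent cells 26.8% lower and 42.2% higher (IL13) and 31.6% and 38.0% (IL5). Slfn2, whose loss breaks T cell quiescence, was at 1050.2 CPM in IL5 pre-stimulation cells and 97.3 in activated cells, and at 296 and 186 CPM in the IL13 index. Pdcd4, a translation inhibitor, was lower in activated than in silent cells at -2.93 (-3.39 to -2.49) for IL13. Of 12 CCR4-NOT subunits, the complex that Btg1 and Btg2 bind, 4 were lower and 5 higher of 10 with a ratio in activated IL13 cells (median 1.05), and 2 lower and 5 higher of 10 in the IL5 index (median 0.88). The 4 lower ones in the IL13 index were the 4 with a mean of at least 50 CPM, so the counts of this list depend on the minimum. These lists were picked with earlier results of the same cells known and are not independent evidence of a direction.

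Of 20 immediate early genes 13 had a ratio at 30 min in each index, of which 10 were higher and 1 lower (IL13) and 9 higher and 1 lower (IL5). Of all genes of at least 10 CPM 36.9% and 37.8% were higher. Nfkbia, the NF-kB inhibitor, went from 148 to 2994 CPM in the IL13 index and from 201 to 2186 CPM in the IL5 index. Of 15 proliferation genes 12 were lower and 1 higher of 15 with a ratio at 30 min in the IL13 index, and 2 lower and 5 higher of 9 in the IL5 index, beside 32.9% and 31.7% of all genes lower at that minimum. Of the IL13 pre-stimulation cells 1 held 24755 CPM of these genes and the other 4 held 50.9 to 687 CPM, below the 770 CPM median of cells at 30 min, so the IL13 counts are not read as a difference common to the cells.

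For the 5 genes that averaged 50 CPM or more the most alike courses over the 12 groups were sought among 2658 genes by Pearson's r of log2(CPM + 10), as a description over groups that share depth and dates. Klf6 was followed most closely by Macf1 (r = 0.91), Cox8a (0.85) and Psmb9 (0.85). Klf13 was closest to Gm9703 (0.91), Rgs10 (0.89) and Sorl1 (0.89), and Ypel3 to Tbc1d10c (0.92), Limd2 (0.89) and Itm2b (0.87). Btg1 was closest to Gm49339 (0.92), Gimap1 (0.86) and Akna (0.84), and Btg2 to Ahsa2 (0.86), Arl1 (0.84) and Nfkb2 (0.82). None of these 5 genes was among the 3 closest to another of them. Klf2, Klf3, Klf4, Klf10 and Foxo1 lay under the minimum and were not part of the search.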

How the data were processed

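Single-cell 3' mRNA libraries (SMART-Seq v4 3' DE, 5 or 6 pooled evenly before tagmentation) of 120 mouse ILC2s were measured. The deposited values are raw counts, made by the authors with TopHat and HTSeq on GRCm38 (mm10). The submitters' processing notes name TopHat2, mm10 and also GRCh38, while all gene IDs are of mouse. Versions, annotation release and strand setting were not given in the sources used here. There were no molecular identifiers, so intervals cover counting error only. Over all cells 62.0% of tallied reads were in genes, 28.7% aligned to more than 1 place, 7.42% lay outside genes and 1.86% were ambiguous, and only the first were used (31016336 reads).

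Symbols came from a GRCm38 table (45143 of 46078 IDs). Reads were summed over the cells of each group and divided by their gene reads to give CPM, with exact Poisson 95% intervals, and shares of cells used exact binomial intervals. Log2 ratios used a floor of 3 reads per group and a Clopper-Pearson interval of the split of reads. A ratio against a group under the floor was dropped where the other group's CPM lay below that floor. Each sample is 1 cell and no animal or culture is named, so no test was made and calls mean at least 2-fold. Summing was checked on simulated data, where some unchanged genes also passed 2-fold, so a call alone does not mean a change. Alternatives were equal weight for each cell, TMM factors (edgeR 4.0.16), size factors (DESeq2 1.42.0), both indexes' pre-stimulation cells joined, each date, no shallow cells, log2(CPM + 10), minimum means of 10 and 200 CPM, unthinned cells, at least 5 reads, leaving out each cell, and gene reads without 9 cytokine and chemokine genes, the last chosen after seeing the data. Python 3.11.15, numpy 2.4.6, scipy 1.17.1, pandas 2.3.3 and R 4.3.3 were used.

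The 10 genes and all gene lists were chosen with earlier results of these data known. Every one of the 10 was named, listed genes were named with at least 50 CPM in a group of a comparison or for being at 0 (marker genes also at other levels), and for each of the 10 with a mean of 50 CPM or more the 3 genes with the closest course. The cells named as deciding a value were picked after their values were seen.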

Additional observations from a re-analysis of the deposited data

Results flagged for a closer look

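Among the pre-stimulation groups, the groups small enough (5 cells) for Dixon's outlier limit, 12 sets of values of the 10 genes varied and could be examined on log2(CPM + 1), and 3 had a cell beyond the limit. The limit passes about 1 in 20 sets by chance, but the genes were chosen on these values and a set of 4 zeros and 1 value always passes it, so nothing is read from the number. Klf10 in the IL13 index stood at 206 CPM in 1 cell and at 0 in the other 4. Btg2 in the IL5 index was at 273 CPM in 1 cell and at 0 in the other 4. Klf13 in the IL5 index was at 0 CPM in 1 cell, below 4 cells at 172 to 896 CPM. Klf3 went in opposite directions in the 2 indexes at 30 min against pre-stimulation, with a log2 ratio of 1.55 in the IL13 index and -4.02 in the IL5 index. With pre-stimulation cells of both indexes joined the IL13 ratio was -0.076 and the IL5 ratio -3.39. Both were then negative, so the directions were no longer opposite, while the ratios of the indexes still lay apart. With 1 sample per group the difference was not tested, and in single cells it is not uniform, since 6 of 11 IL13 cells at 30 min had no Klf3 read.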

How the results depend on the processing

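No paired analysis was possible because the labels give no replicate numbers that tie cells of different groups together and no test was made. Recomputed counts of genes at least 2-fold lower stayed within 1.5 times the value reported in 80 cases and not in 8. At 30 min in the IL13 index the count of 2 became 1 with TMM factors, 1 with pre-stimulation cells of both indexes (Klf13, as Klf6 and Ypel3 both lost the call), and 0 to 2 with any 1 cell left out. For activated against pre-stimulation cells the IL13 count of 5 was 3 to 5 with any 1 cell left out, and the IL5 count of 5 became 3 with TMM factors and 3 on the first date. For silent against pre-stimulation IL13 cells the count of 1 became 3 with pre-stimulation cells of both indexes. For activated against silent IL5 cells the count of 6 was 3 to 6 with any 1 cell left out. The median of all genes moved by 0.05 to 0.47 in log2 with TMM factors, by -0.13 to 0.11 with DESeq2 size factors and by at most 0.12 without cytokine and chemokine genes.

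Recomputed ratios of single genes stayed within their counting interval in 416 cases, moved outside it in 236, and changed direction in 16, where a change of direction was counted only for ratios called at least 2-fold. None of the 16 came from another scaling. With pre-stimulation cells of both indexes the IL13 ratios became -0.076 for Klf3 at 30 min, -0.43 for Btg2 in activated cells and -0.23 for Btg2 in silent cells. By date, activated against silent cells gave 3.76 for Klf6 (IL13, first), 0.84 for Foxo1 (IL13, second), 1.55 for Klf13 (IL5, second) and 0.16 for Foxo1 (IL5, first). With any 1 cell left out, ratios against pre-stimulation cells ran from -5.76 to 1.24 for Klf13 (IL13 activated) and from -0.81 to 4.24 for Klf10 (IL13 silent). For Klf6 in the IL5 index they ran from -5.64 to 0.0026 at 30 min, from -2.50 to 0.12 in activated and from -2.40 to 0.34 in silent cells. In the same way activated against silent cells ran from -2.37 to 0.60 (Foxo1, IL13), -4.24 to 0.067 (Klf4, IL5), -2.42 to 0.080 (Foxo1, IL5) and -2.60 to 0.54 (Btg2, IL5). The causes were not tested beyond the cells left out. With a minimum mean of 200 CPM the share of all genes at least 2-fold lower was 5.95 to 22.8%. Sparse detection limits statements on Klf2, Klf4 and Foxo1, whose reads lie in 1, 7 and 28 of 120 cells.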
